A study of Mus musculus with 2 samples.

Results

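The insulin-like growth factor (IGF) system of the mouse abdominal aorta was examined through 10 genes: the ligands *Igf1* and *Igf2*, the receptors *Igf1r* and *Igf2r*, and the binding proteins *Igfbp2*, *Igfbp3*, *Igfbp4*, *Igfbp5*, *Igfbp6* and *Igfbp7*. The genes were taken by symbol, and all 10 were found among the 33696 genes of both count matrices. Abdominal aortas were dissociated and sequenced as single cells (10x Genomics, 3' UMI counts) after 28 days. The AngII+HS mice, in which the treatment is used as a model of abdominal aortic aneurysm, received angiotensin II at 1500 ng/kg/min from an implanted minipump and drank water with 0.9% NaCl and 0.2% KCl, and the Control mice received saline. All mice were male C57BL/6J, 5 months old at the start. Each group was 1 library that pooled the aortas of 5 mice by the design text, although the protocol text names 1 mouse for Control and 2 for AngII+HS.

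With 1 library per group there was no replicate, so no difference between the groups was tested, and a difference between the treatments cannot be told apart from a difference between the libraries. Intervals in brackets are 95% intervals (exact Poisson for a level, exact conditional binomial for a ratio) and cover counting error only. After filtering, 10269 Control and 19734 AngII+HS cells remained, with a median of 7265 and 3069.5 UMIs per cell and totals of 75265697 and 80416904 UMIs. The libraries had 67 cell barcodes in common. The barcode list recorded with each library had the length of the other library's matrix; the matrices were used as recorded, and an exchange would turn every direction given here. Levels are CPM, the UMIs of a gene per 1000000 UMIs, summed over the cells of a type in a library. They compare 1 gene across cells, not 1 gene with another.

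IGF1 and IGF2 are secreted peptides that signal through the IGF1 receptor, a tyrosine kinase at the cell surface, while the IGF2 receptor carries IGF2 and mannose 6-phosphate-tagged enzymes to lysosomes. The IGF binding proteins hold IGFs in the extracellular space, prolong their half-life and can block or deliver them, and IGFBP7 binds IGFs only weakly. In the artery wall, IGF1 is known to promote the growth and survival of vascular smooth muscle cells (VSMCs).

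*Igfbp2* (chr1:72863606-72891634, plus strand) and *Igfbp5* (chr1:72897091-72914043, minus strand) were neighbours that point toward each other, with 5456 bases between their ends (GRCm39, GENCODE annotation). *Igfbp7* (chr5:77493130-77555931, minus strand) lies on another chromosome. The promoters of these 3 genes are shown because *Igfbp2* and *Igfbp5* differed between the libraries in opposite directions in VSMCs, and because *Igfbp7* differed between both the libraries and the subtypes of vascular endothelial cells (VECs). The windows run from 250 bases before to 50 bases after each start in RefSeq (build GRCm38.p6, whose coordinates are not those of GRCm39), 5′ to 3′ on the gene's strand, and capitals mark matches, on either strand, to the TATA box core, the GC box core, an E-box or the AP-1 motif, whose letters are spelled out after the sequences.
Igfbp2, start 1, chr1:72824230-72824529, plus strand: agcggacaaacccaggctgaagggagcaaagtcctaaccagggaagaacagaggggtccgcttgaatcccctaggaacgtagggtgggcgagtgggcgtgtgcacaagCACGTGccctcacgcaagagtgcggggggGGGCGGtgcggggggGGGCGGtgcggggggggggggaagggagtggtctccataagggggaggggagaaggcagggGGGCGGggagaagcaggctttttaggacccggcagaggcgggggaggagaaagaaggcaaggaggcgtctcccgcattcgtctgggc
Igfbp2, start 2, chr1:72825137-72825436, plus strand: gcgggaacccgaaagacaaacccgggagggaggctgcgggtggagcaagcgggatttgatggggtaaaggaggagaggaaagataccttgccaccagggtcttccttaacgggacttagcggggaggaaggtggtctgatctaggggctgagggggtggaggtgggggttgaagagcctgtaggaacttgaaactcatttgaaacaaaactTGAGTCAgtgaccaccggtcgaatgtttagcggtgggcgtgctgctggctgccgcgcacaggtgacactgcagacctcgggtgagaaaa
Igfbp5, chr1:72874816-72875115, minus strand: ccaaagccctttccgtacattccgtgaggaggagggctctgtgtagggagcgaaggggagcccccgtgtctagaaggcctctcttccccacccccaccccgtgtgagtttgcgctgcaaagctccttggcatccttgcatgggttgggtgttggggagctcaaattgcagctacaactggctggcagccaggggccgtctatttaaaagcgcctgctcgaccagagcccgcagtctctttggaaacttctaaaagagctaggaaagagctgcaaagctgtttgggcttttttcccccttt
Igfbp7, chr5:77407996-77408295, minus strand: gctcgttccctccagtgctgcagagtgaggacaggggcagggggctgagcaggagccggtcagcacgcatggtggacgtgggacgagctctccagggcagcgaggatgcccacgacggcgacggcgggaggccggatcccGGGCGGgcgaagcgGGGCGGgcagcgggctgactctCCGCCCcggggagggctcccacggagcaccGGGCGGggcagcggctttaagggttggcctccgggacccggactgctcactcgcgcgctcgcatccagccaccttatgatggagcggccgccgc
GGGCGG, the core of the GC box, was matched 3 times at *Igfbp2* start 1, 4 times at *Igfbp7* and 0 times at *Igfbp5*, and was present in 35.7% of all 32851 promoters of the same length. CACGTG, an E-box, was matched once at *Igfbp2* start 1 and is found in 7.15% of promoters. TGACTCA, the AP-1 motif, was matched once at *Igfbp2* start 2 and is found in 5.20%. TATAAA, the TATA box core, was matched at none of these 4 windows and is found in 13.6%. No match overlapped another one in these windows, and a match is only a description of the letters.

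The cells formed 26 clusters, which were named from the markers of 12 cell types. The names stand for cells like those types, and 4 clusters stayed unnamed, with 1208 Control and 970 AngII+HS cells. The make-up of the libraries differed: VSMCs numbered 5106 in Control and 677 in AngII+HS, fibroblasts 1929 and 4243, macrophages 495 and 4456, neutrophils 99 and 4647, VECs 837 and 1231, and lymphatic endothelial cells (LECs) 137 and 150. Each of these types had its defining markers. B cells, 100 in Control and 996 in AngII+HS, make little of most of these proteins and were read as a measure of free RNA: they held 103 CPM of *Igfbp7* in Control and 154 CPM in AngII+HS, and 23.5 and 62.9 CPM of *Igfbp4*. The median depth in AngII+HS was 1985 UMIs in B cells, 5447 in fibroblasts and 8881 in VSMCs. A level in CPM and a count per cell can therefore rank the types differently.

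In Control the members differed by where most of their UMIs were. *Igf1*, *Igfbp4*, *Igfbp5* and *Igfbp6* lay mainly in fibroblasts, *Igfbp2*, *Igfbp7* and both receptors in VSMCs, and *Igfbp3* in endothelial cells and fibroblasts. Fibroblasts held 77.9% of the *Igf1* UMIs in Control and 81.8% in AngII+HS, macrophages 6.52% and 12.5%, and VSMCs 7.28% and 0.549%. The shares moved with the make-up of the libraries. VSMCs held 84.6% of the *Igfbp7* UMIs in Control and 26.7% in AngII+HS, and fibroblasts 9.33% and 55.1%. Over all cells, *Igfbp7* was 2402 CPM in Control and 1759 CPM in AngII+HS, so it was lower in the whole AngII+HS library although it was higher in VSMCs, fibroblasts and VECs. VSMCs held 76.8% of the *Igf1r* UMIs in Control and 10.5% in AngII+HS, and neutrophils 1.11% and 35.2%. For *Igf2r*, VSMCs held 71.3% and 12.2%, and fibroblasts 12.8% and 33.1%.

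**Figure D1:**
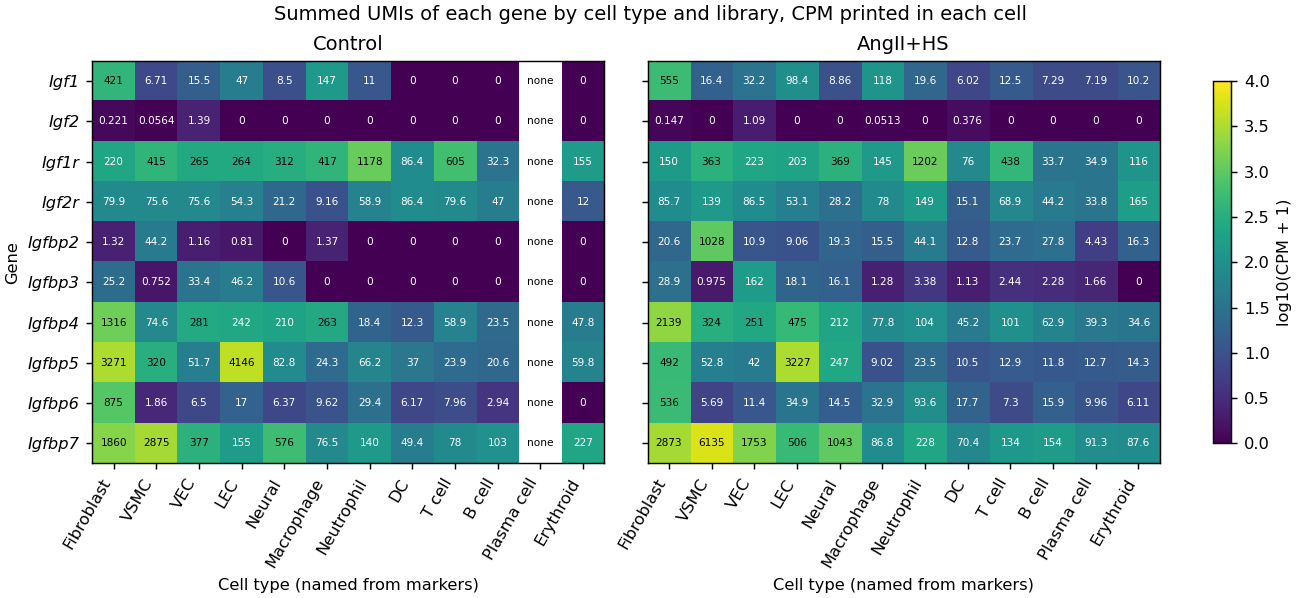
Level of each of the 10 genes (rows) in each named cell type (columns) of the Control library (left) and the AngII+HS library (right), with the CPM of summed UMIs printed in each field and the colour on a log10(CPM + 1) scale. *Igfbp7* reached 2875 CPM in Control VSMCs and 6135 CPM in AngII+HS VSMCs, and *Igf2* stayed below 2 CPM in every type. "None" marks plasma cells, of which Control had 0.

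**Figure D2:**
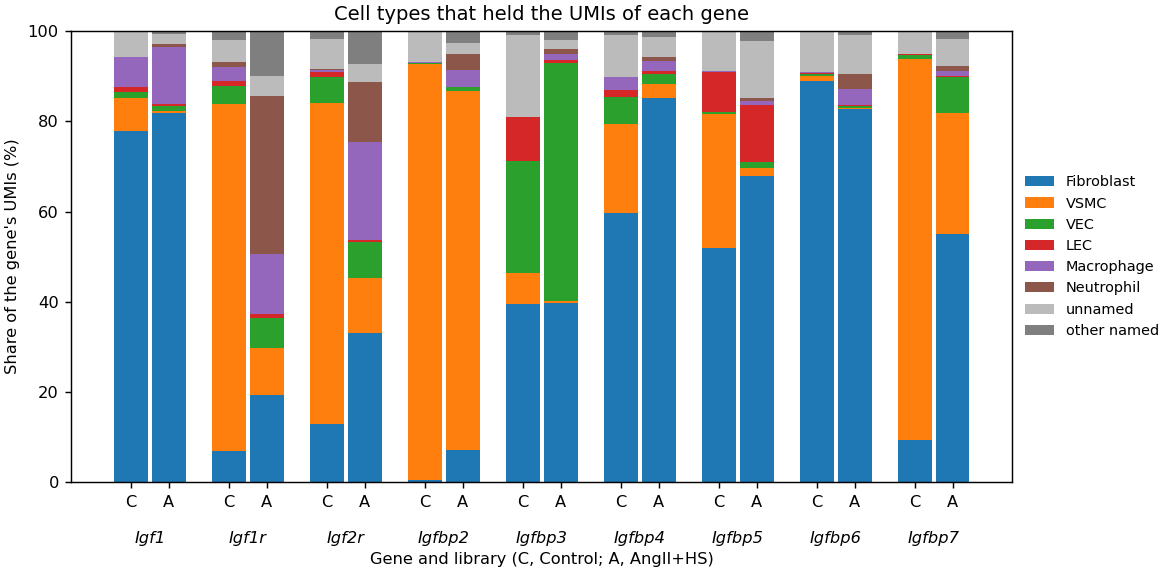
Share of each gene's UMIs (vertical axis, percent, stacked to 100) that lay in each cell type, for Control (C) and AngII+HS (A). "Unnamed" is the 4 unnamed clusters and "other named" the remaining named types. *Igfbp7* moved from VSMCs (84.6% in Control) to fibroblasts (55.1% in AngII+HS), and *Igf1* stayed in fibroblasts. *Igf2* is left out, with 11 UMIs in Control and 14 in AngII+HS.

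*Igf1* (chr10:87693642-87772904, plus strand) was highest in fibroblasts of both libraries, at 421 CPM [408 to 435] in Control and 555 CPM [546 to 564] in AngII+HS. The log2 ratio of AngII+HS over Control was 0.40 [0.35 to 0.45], which did not reach 2-fold. This value moved with the treatment of doublets: it was 0.19 with no doublets removed, 0.60 with double the number removed and 0.63 after TMM scaling. TMM scaling raised all log2 ratios of fibroblasts by 0.23 and those of macrophages by 0.31, and shifted those of VECs by -0.01. The fibroblasts that carry Pi16, a marker of adventitial progenitor-type fibroblasts, had 408 CPM of *Igf1* in Control and 698 CPM in AngII+HS. The fibroblasts that carry Postn, a matrix protein of activated fibroblasts, had 578 and 621 CPM, so they differed by less (log2 ratio 0.11 [-0.00 to 0.21] against 0.78 [0.68 to 0.87]). The Pi16 type made up 770 of 1929 fibroblasts in Control and 821 of 4243 in AngII+HS, and the Postn type 272 and 2131. Within the Postn type, the subclusters led by *Spp1* and by *Erbb4* had 1 and 4 Control cells, and 201 and 189 AngII+HS cells. The part of this make-up in the fibroblast ratios of *Igf1*, *Igfbp5* and *Igfbp6* was not tested. Of the 7 fibroblast subclusters with at least 20 cells of each library, 5 had more *Igf1* in AngII+HS and 2 less. Their log2 ratios ran from -0.42 to 0.89.

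Macrophages had the next highest level of *Igf1*, at 147 CPM in Control and 118 CPM in AngII+HS. The log2 ratio of -0.31 [-0.48 to -0.14] became 0.000166 after TMM scaling, so no direction is given. A cluster led by *C1qa*, *C1qc* and *C1qb* held most macrophages of both libraries, 448 of 495 in Control and 2269 of 4456 in AngII+HS, and one led by *Arg1*, *Ccl24* and *Pf4* held 42 and 2096. Within macrophages, the resident type, which carries Lyve1, held *Igf1* at 179 CPM in Control and 176 CPM in AngII+HS. The monocyte type held 16.1 and 17.9 CPM. The highest level was in an unnamed subcluster led by *Gpnmb*, *Mmp12* and *Lpl*, chosen after its values were seen, with 237 CPM from 16 Control cells and 470 CPM from 451 AngII+HS cells. *Igf1* was among the genes that lead this subcluster, although the clustering left the members out.

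Endothelial cells held less *Igf1*. LECs had 47.0 CPM in Control and 98.4 CPM in AngII+HS (log2 ratio 1.07 [0.55 to 1.58]) and VECs 15.5 and 32.2 CPM (1.05 [0.65 to 1.47]). VSMCs had 6.71 and 16.4 CPM (1.29 [0.96 to 1.61]), in a range where the B cells of AngII+HS had 7.29 CPM. Subtracting the B cell level brought these 3 log2 ratios below 2-fold, to 0.95, 0.68 and 0.44. The subtraction was scaled to the UMIs of each type, so it took more per cell from deep cells such as VSMCs. In AngII+HS, VSMCs had 101 *Igf1* UMIs in 677 cells and B cells 16 UMIs in 996 cells. A subtraction per cell was not run. The 100 Control B cells had 0 UMIs of *Igf1*, so the subtraction could lower the AngII+HS values only. *Igf2* (chr7:142204503-142220694, minus strand), the fetal growth ligand, was at or near 0: 11 UMIs in Control and 14 in AngII+HS over all cells, with a same-strand annotated gene, *Gm49394*, overlapping it. 6 of the Control UMIs and 7 of the AngII+HS UMIs lay in VECs. Of these, the VEC subcluster led by *Dkk2*, *Alpl* and *Sema3g* held 5 UMIs (13.9 CPM [4.50 to 32.4]) in Control and 5 UMIs (21.0 CPM [6.82 to 49.0]) in AngII+HS.

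*Igf1r* (chr7:67601518-67883416, plus strand) was highest in neutrophils, at 1178 CPM in Control and 1202 CPM in AngII+HS, and next in T cells, at 605 and 438 CPM. It passed 2-fold in macrophages alone of the 9 types with at least 50 UMIs of it. There it was 417 CPM [391 to 445] in Control and 145 CPM [140 to 151] in AngII+HS, a log2 ratio of -1.52 [-1.63 to -1.41]. Within the macrophage types the levels were also lower in AngII+HS: 479 and 190 CPM in the resident type, and 239 and 142 CPM in the monocyte type. The log2 ratios were -1.33 and -0.75, so the resident type was past 2-fold lower and the monocyte type was not. In VSMCs, VECs, fibroblasts and LECs the log2 ratio of *Igf1r* lay between -0.55 and -0.20.

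*Igf2r* (chr17:12901293-12988614, minus strand) was past 2-fold higher in AngII+HS in macrophages and neutrophils among the 8 types with at least 50 UMIs of it. In macrophages it was 9.16 CPM [5.60 to 14.2] in Control, from 20 UMIs, and 78.0 CPM [74.1 to 82.0] in AngII+HS, a log2 ratio of 3.09 [2.46 to 3.80]. The resident type held 4.35 and 10.8 CPM and the monocyte type 13.8 and 92.1 CPM, from 6 Control UMIs in the latter, so the resident type was low in both libraries. The resident type made up 404 of 495 macrophages in Control and 1051 of 4456 in AngII+HS. The share of macrophages with at least 1 UMI, each thinned to 1000 UMIs, was 0.489% in Control and 6.84% in AngII+HS. In B cells it was 4.98% and 4.07%, so Control macrophages were below B cells. In CPM, Control B cells had 47.0, against 9.16 in macrophages and 21.2 in neural cells. The B cell level was therefore not read as free RNA for *Igf2r*. Fibroblasts (79.9 and 85.7 CPM) and VECs (75.6 and 86.5 CPM) hardly differed between the libraries.

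*Igfbp7* was higher in AngII+HS in VECs and in each of their subtypes. VECs had 377 CPM [359 to 396] in Control and 1753 CPM [1721 to 1786] in AngII+HS, a log2 ratio of 2.22 [2.14 to 2.29], or 4.65-fold. The share of VECs with at least 1 UMI was 42.4% and 76.1%, and 21.6% and 58.3% when each cell was thinned to 1000 UMIs. B cells thinned in the same way had 10.1% and 15.2%, with a median depth of 3010 and 1985 UMIs. Of the 9 members with at least 50 UMIs in VECs, 4 were past 2-fold higher in AngII+HS (*Igf1*, *Igfbp2*, *Igfbp3* and *Igfbp7*) and 0 were past 2-fold lower. For all 10915 genes tested in VECs, 6.18% were past 2-fold higher and 4.18% lower. Of the 4 members, *Igfbp2* in AngII+HS VECs (10.9 CPM) lay below AngII+HS B cells (27.8 CPM). The log2 ratio of *Igf1* was 0.68 after the B cell level was subtracted in proportion to UMIs, and 0.47 at the Control shares of the VEC subtypes.

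VECs were split into the subtypes c11, c12 and c13 of the study by markers, after clustering without the members and without those markers. The c11 cells carry the matrix genes *Fn1*, *Bgn*, *Eln* and *Mgp*. The c12 cells carry *Cd36*, *Gpihbp1* and other genes of lipid uptake in capillaries, and the c13 cells carry *Lrg1* and the adhesion genes *Selp* and *Sele*. In c12, *Igfbp7* was 1265 CPM [1181 to 1352] in Control and 2618 CPM [2539 to 2699] in AngII+HS. In c13 it was 446 CPM [403 to 492] and 2381 CPM [2318 to 2444]. In c11 it was 73.1 CPM [63.1 to 84.3] and 350 CPM [326 to 376], so that c11 of Control lay below the 103 CPM of Control B cells.

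The levels in AngII+HS were therefore ordered c12, c13 and c11, and c12 was highest in Control as well. The log2 ratios were 1.05 [0.94 to 1.16] in c12, 2.42 [2.27 to 2.57] in c13 and 2.26 [2.03 to 2.50] in c11. In c12, where cells were weighted equally, the log2 ratio was 0.92 and no longer reached 2-fold. *Igfbp7* was past 2-fold higher in all 6 VEC subclusters with at least 20 cells in each library, by between 1.05 and 2.98 on the log2 scale. The subtypes made up different parts of the libraries: c12 held 145 of 837 VECs in Control and 456 of 1231 in AngII+HS, and c11 held 484 and 390. Within the subtypes the libraries also filled different clusters: at a finer resolution of 0.8, a c13 cluster of 120 cells led by *Akr1b8*, *Timp1* and *Fam167b* had 1 Control cell, and a c12 cluster of 266 cells led by *Inhbb*, *Tbx3* and *Slc6a6* had 19. At the Control shares of the subtypes, AngII+HS would have had 1150 CPM, a log2 ratio of 1.73 in place of the 2.30 measured over the 3 subtypes together.

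The single cells showed the same order. In c13 the median cell of at least 1000 UMIs had 0 CPM in Control and 1720 CPM in AngII+HS. In c12 it had 870 and 2157 CPM, and in c11 0 and 135 CPM. Cells above 1000 CPM made up 13.9% of c13 in Control and 65.0% in AngII+HS. Markers of other cells moved with these values in part: the summed level of 6 fibroblast markers in VECs was 270 CPM in Control and 790 CPM in AngII+HS, with 0 of the 6 at 0, and that of 5 VSMC markers was 811 and 821 CPM. In c11 these sums went from 247 to 1194 CPM and from 718 to 1231 CPM. In c13 the sum of fibroblast markers was 219 CPM in Control and 454 CPM in AngII+HS, that of VSMC markers 1057 and 470 CPM, and that of 6 pericyte markers 265 and 105 CPM. In c12 the sum of fibroblast markers was 141 and 670 CPM, and in B cells it was 182 and 949 CPM. The part of RNA from these other cells in the VEC values was not tested. The c13 cells also differed in subtype markers. Their sum of 4 c11 markers was 3838 CPM in Control and 1336 CPM in AngII+HS, and that of 5 c13 markers 6192 and 4950 CPM. The part of this difference in the *Igfbp7* ratio of c13 was not tested.

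**Figure D3:**
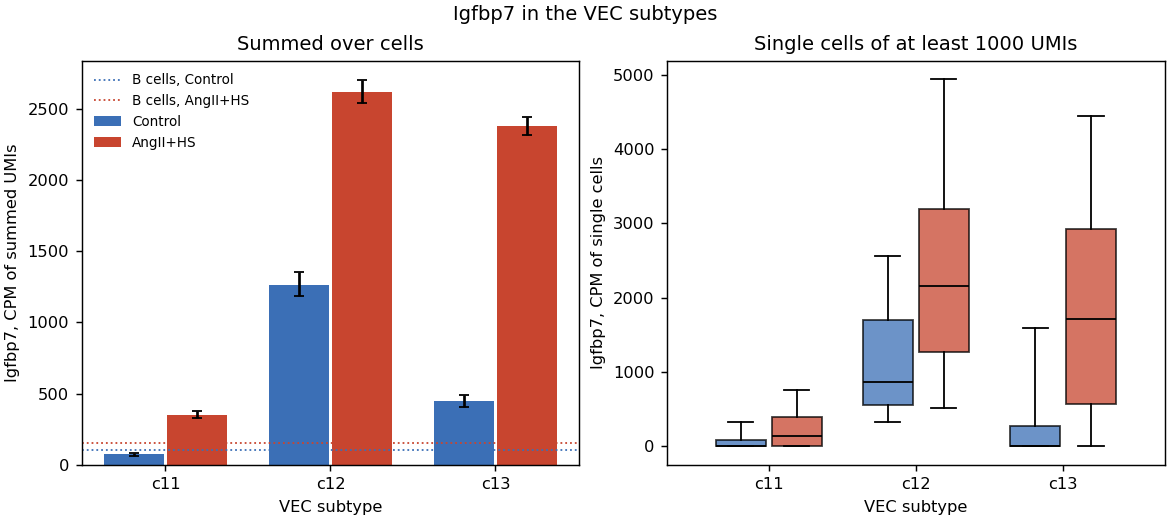
*Igfbp7* in the VEC subtypes c11, c12 and c13 of Control (blue) and AngII+HS (red). Left, CPM of summed UMIs with 95% Poisson intervals and the level of B cells as dotted lines. Right, CPM of single cells with at least 1000 UMIs: the line is the median, the box the middle 50% of cells, and the whiskers reach the 10th and 90th percentiles. The summed level of AngII+HS exceeds that of Control in each subtype, and c12 is highest in both libraries.

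Outside VECs, *Igfbp7* was highest in VSMCs, at 2875 CPM in Control and 6135 CPM in AngII+HS. The log2 ratio was 1.09 [1.08 to 1.11], and it lay at 0.99 with double the doublets removed and at 0.98 with an unnamed cluster led by *Pln*, *Nrip2* and *Notch3* counted as VSMCs. That cluster scored highest for VSMC markers but was left unnamed because a pericyte marker was among its leading genes, and it held 3336 CPM of *Igfbp7* in Control and 3300 CPM in AngII+HS. The 3 VSMC clusters had log2 ratios between 0.83 and 1.05. The sum of 6 fibroblast markers in VSMCs was 2492 CPM in Control and 5559 CPM in AngII+HS, and its part in the VSMC values of *Igfbp7*, *Igfbp4* and *Igfbp6* was not tested. Fibroblasts had 1860 and 2873 CPM of *Igfbp7* (0.63 [0.60 to 0.65]), with a higher level in AngII+HS in all 7 subclusters that had at least 20 cells of each library. LECs had 155 and 506 CPM (1.71 [1.46 to 1.97]). Their sums of VSMC markers were 443 and 416 CPM and those of fibroblast markers 368 and 570 CPM, whose part in this value was not tested. Macrophages, at 76.5 and 86.8 CPM, lay at or below the level of B cells.

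*Igfbp3* (chr11:7156086-7164179, minus strand), the main carrier of IGFs in plasma, was 33.4 CPM [28.2 to 39.3] in VECs of Control and 162 CPM [153 to 172] in AngII+HS, a log2 ratio of 2.28 [2.03 to 2.54]. It came from few cells: 6.45% of VECs in Control and 11.2% in AngII+HS had a UMI, against 0% and 0.502% of B cells. In c12 it was 99.1 and 310 CPM, in c13 13.6 and 147 CPM, and in c11 13.1 and 40.6 CPM. In AngII+HS these subtypes held 490, 339 and 90 of the 1044 *Igfbp3* UMIs of VECs. The remainder lay in an unnamed subcluster of 34 AngII+HS cells, led by *Rgs4*, *Notch3* and *Steap4*, with pericyte markers among its leading genes. Over the named subtypes alone, *Igfbp3* was 27.2 CPM in Control and 151 CPM in AngII+HS (log2 ratio 2.47). Within c11 it lay in the subcluster led by *Dkk2*, *Alpl* and *Sema3g*, with 66.6 CPM in Control and 327 CPM in AngII+HS. In the subcluster of c13 led by *Adarb2*, *Lbp* and *Adgrg6*, 0 UMIs were found in either library, and a count of 0 allows up to 10.85 CPM in Control and 11.01 CPM in AngII+HS (3 counts per library). The ratios of the subtypes depended on how cells were assigned: that of c12 was 1.65 and became 0.68 when the members took part in the clustering, and that of c11 was 1.63 and ran from 0.69 with no doublets removed to 3.47 with the members in the clustering. In LECs *Igfbp3* was lower in AngII+HS, at 46.2 CPM from 57 UMIs and 18.1 CPM from 14 UMIs, and this log2 ratio of -1.35 was -0.27 with double the doublets removed and -0.88 with equal weight per cell.

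*Igfbp2* and *Igfbp5*, the neighbours on chromosome 1, showed opposite differences in VSMCs. *Igfbp2* was 44.2 CPM [42.4 to 46.0] in VSMCs of Control and 1028 CPM [1003 to 1054] in AngII+HS, a log2 ratio of 4.54 [4.47 to 4.61]. A UMI of it was found in 10.0% of Control and 64.7% of AngII+HS VSMCs. *Igfbp5* was 320 CPM [315 to 324] in VSMCs of Control and 52.8 CPM [47.2 to 58.9] in AngII+HS, a log2 ratio of -2.60 [-2.76 to -2.44]. Of the 8 members with at least 50 UMIs in VSMCs, 5 were past 2-fold higher (*Igf1*, *Igfbp2*, *Igfbp4*, *Igfbp6* and *Igfbp7*) and 1 lower, *Igfbp5*. Of 13579 genes tested in VSMCs, 4.23% were past 2-fold higher and 9.14% lower. Of the 5 members, *Igfbp6* in AngII+HS VSMCs (5.69 CPM) lay below AngII+HS B cells (15.9 CPM). The log2 ratio of *Igf1* was 0.44 after the B cell level was subtracted in proportion to UMIs.

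Both differences were found in each of the 3 VSMC clusters. The cluster led by *E030013I19Rik*, *Mylk4* and *Sost* held 75.6 CPM of *Igfbp2* in Control and 1119 CPM in AngII+HS. The cluster led by *Erbb4* held 6.25 and 577 CPM, and the cluster led by *Des* held 47.8 and 1096 CPM. For *Igfbp5* the same 3 clusters held 197 and 44.8 CPM, 324 and 62.9 CPM, and 743 and 94.3 CPM. In the unnamed *Pln* cluster the pattern was turned: *Igfbp2* was 113 CPM in Control and 20.4 CPM in AngII+HS, and *Igfbp5* was 1527 and 1742 CPM. With that cluster counted as VSMCs the log2 ratio of *Igfbp5* was -0.16, past 2-fold no longer, since its 221 AngII+HS cells stood beside 677 named VSMCs.

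Outside VSMCs, *Igfbp2* was past 2-fold higher in AngII+HS in all 6 other types that had at least 50 UMIs of it, B cells and T cells among them. The AngII+HS levels were 20.6 CPM in fibroblasts, 10.9 CPM in VECs, 15.5 CPM in macrophages and 23.7 CPM in T cells, all at or below the 27.8 CPM of B cells. The part of free RNA in them was not tested. Per cell the order differed: fibroblasts of AngII+HS had 560 UMIs in 4243 cells, above B cells with 61 UMIs in 996 cells. Neutrophils, the shallowest of these types, had 44.1 CPM, from 274 UMIs in 4647 cells.

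In fibroblasts *Igfbp5* was 3271 CPM [3233 to 3308] in Control and 492 CPM [484 to 500] in AngII+HS, a log2 ratio of -2.73 [-2.76 to -2.70], or 6.65-fold lower. The Pi16 type held 3475 and 915 CPM and the Postn type 1369 and 124 CPM. It was past 2-fold lower in 6 of the 7 fibroblast subclusters with at least 20 cells of each library. The exception was the one led by *Notch3*, *Inpp4b* and *Rgs5*, with 800 CPM in Control and 1119 CPM in AngII+HS, which carried VSMC and pericyte genes. The shallow unnamed cluster led by *Cst3*, which scored as fibroblast, held 2780 and 425 CPM. Of the 9 members with at least 50 UMIs in fibroblasts, *Igfbp2* was past 2-fold higher and *Igfbp5* lower, where 6.21% of 13494 genes were higher and 6.38% lower.

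LECs had the highest level of *Igfbp5* of all types, at 4146 CPM [4033 to 4261] in Control and 3227 CPM [3102 to 3356] in AngII+HS, and so differed little (log2 ratio -0.36 [-0.43 to -0.29]). Neural cells had 82.8 CPM in Control and 247 CPM in AngII+HS (1.57 [1.09 to 2.09]). Of the 4 members tested in neural cells this was the 1 past 2-fold higher, where 3.82% of genes were. In neural cells the sum of 6 fibroblast markers was 1185 CPM in Control and 3284 CPM in AngII+HS, and its part in that value was not tested. In LECs 2 of 7 members were past 2-fold higher (*Igf1* and *Igfbp7*; 4.9% of genes) and 1 lower (*Igfbp3*; 2.92% of genes).

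**Figure D4:**
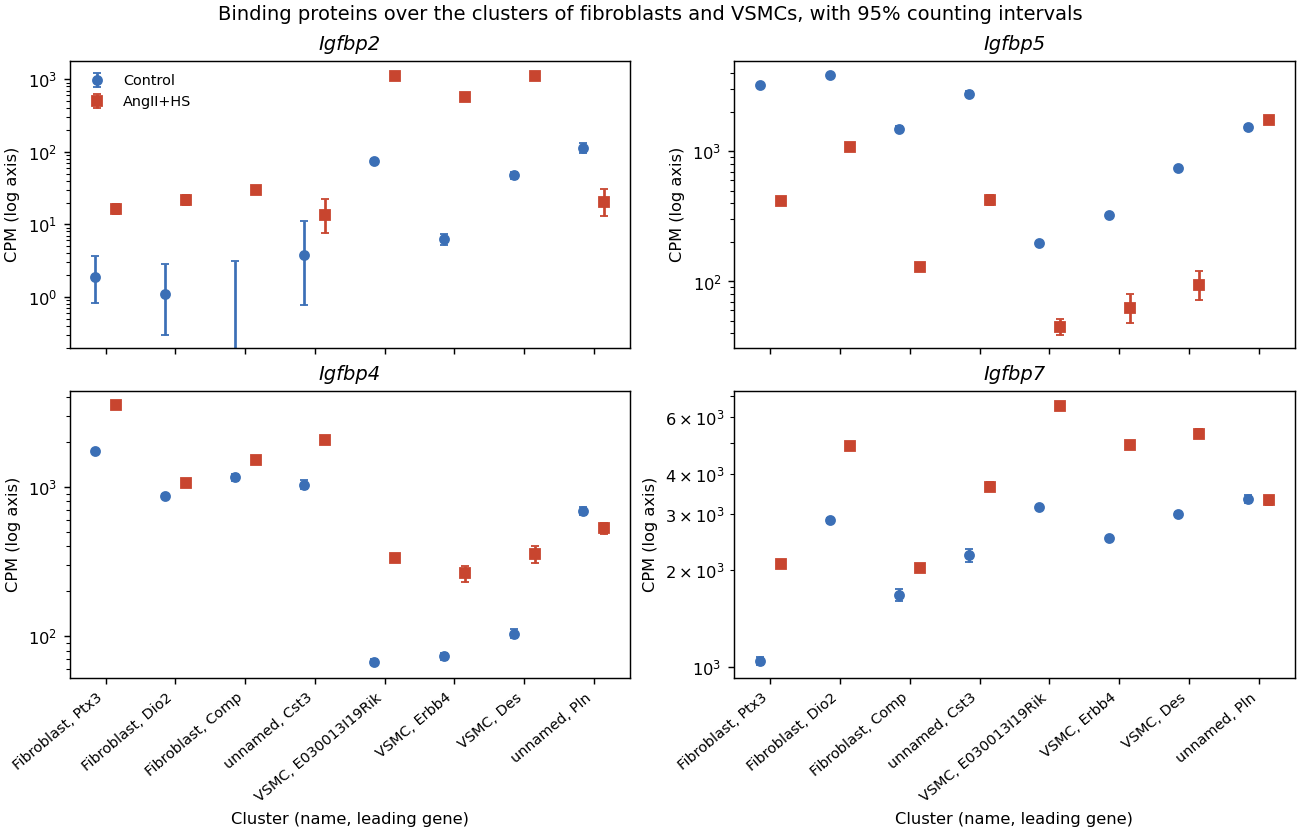
*Igfbp2*, *Igfbp5*, *Igfbp4* and *Igfbp7* (CPM on a log axis, with 95% Poisson intervals) in the clusters of fibroblasts and VSMCs with at least 50 Control cells, for Control (blue circles) and AngII+HS (red squares). Each cluster is labelled by its name and first leading gene. *Igfbp2* is higher and *Igfbp5* lower in AngII+HS in every named cluster shown, and the unnamed *Pln* cluster shows neither. The *Comp* fibroblasts of Control had 0 UMIs of *Igfbp2*, so only the upper end of their interval is drawn.

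*Igfbp4* (chr11:98932064-98945218, plus strand), which is cleaved by the protease PAPP-A, was highest in fibroblasts, at 1316 CPM [1292 to 1340] in Control and 2139 CPM [2121 to 2156] in AngII+HS. The log2 ratio was 0.70 [0.67 to 0.73]. VSMCs had 74.6 and 324 CPM (2.12 [2.04 to 2.20]), and the 3 VSMC clusters each had a level between 67.4 and 104 CPM in Control and between 263 and 353 CPM in AngII+HS. Macrophages had 263 CPM in Control and 77.8 CPM in AngII+HS (-1.76 [-1.90 to -1.62]), a level close to the 62.9 CPM of AngII+HS B cells. Within the resident type *Igfbp4* was 339 and 196 CPM (-0.79 [-0.95 to -0.63]). The monocyte type held 20.7 and 43.8 CPM (1.09 [0.15 to 2.22], from 9 Control UMIs), at or below the level of B cells. Neither of these types was past 2-fold lower. The resident type made up 404 of 495 macrophages in Control and 1051 of 4456 in AngII+HS. The part of these shares in the macrophage ratio was not tested. VECs had 281 and 251 CPM, and c12 alone among the VEC subtypes was past 2-fold higher (53.2 and 127 CPM).

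*Igfbp6* (chr15:102052697-102057953, plus strand), which prefers IGF2, was a fibroblast gene in both libraries, at 875 CPM [856 to 894] in Control and 536 CPM [527 to 545] in AngII+HS (log2 ratio -0.71 [-0.75 to -0.67]). The Pi16 type held 1249 and 996 CPM and the Postn type 1021 and 397 CPM. The Postn type was past 2-fold lower (-1.36 [-1.45 to -1.28]) and the Pi16 type was not (-0.33 [-0.39 to -0.27]). In the unnamed *Cst3* cluster *Igfbp6* was higher in AngII+HS, at 976 and 1342 CPM. VSMCs, at 1.86 and 5.69 CPM, stayed below the 15.9 CPM of AngII+HS B cells.

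**Figure D5:**
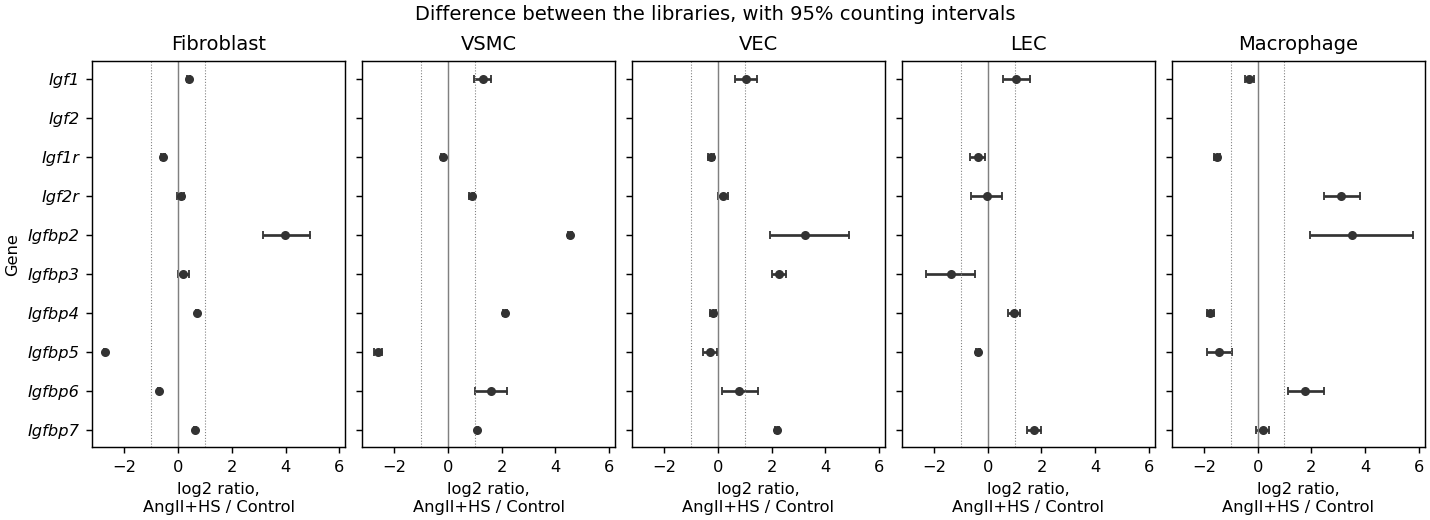
Log2 ratio of AngII+HS over Control (horizontal axis) of each member that reached 50 UMIs and was found in both libraries, in 5 cell types, with 95% counting intervals. The solid line marks no difference and the dotted lines 2-fold. *Igfbp7* lies to the right of 0 in each panel, but its interval in macrophages crosses 0 (0.18 [-0.05 to 0.42]). *Igfbp5* lies far to the left in fibroblasts (-2.73) and VSMCs (-2.60), and *Igf2* did not reach 50 UMIs.

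Over 9 cell types with enough cells in both libraries, 64 of the 90 pairs of a member and a type had at least 50 UMIs. Of these, 23 were past 2-fold higher in AngII+HS, 7 were past 2-fold lower and 34 were within 2-fold. *Igfbp2* gave 7 of the 23, of which VSMCs alone were well above the level of B cells in CPM. In macrophages 3 of 8 members were higher and 3 lower, where 9.6% and 14% of genes were. In neutrophils 4 of 8 were higher and 1 lower, where 23.7% and 11.3% of genes were. T cells had 1 of 6 higher (6.36% of genes) and B cells 2 of 5 (6.33% of genes). In VEC subtypes the members past 2-fold higher were 2 of 6 in c11 (4.73% of genes), 3 of 5 in c12 (6.39%) and 2 of 8 in c13 (13.1%), and 0 were lower in any of the 3 (3.09%, 2.78% and 6.49% of genes). In the Pi16 fibroblasts 0 of 8 were higher and 1 lower (3.11% and 3.39% of genes), and in the Postn fibroblasts 2 of 9 were higher and 2 lower (9.45% and 6.51%). In the resident macrophages 2 of 7 were higher and 2 lower (5.66% and 6.1%), and in the monocyte type 3 of 8 were higher and 1 lower (9.67% and 11.2%).

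The wider IGF system was followed through 16 further genes. In VSMCs 11 of them had at least 50 UMIs, of which *Htra1*, a protease that cleaves IGF binding proteins, was past 2-fold higher, at 233 CPM in Control and 557 CPM in AngII+HS. There 6 were past 2-fold lower, where 4.23% of all genes were higher and 9.14% lower. The adaptor *Irs2*, which passes on the signal of the insulin and IGF1 receptors, was 366 and 155 CPM, and the RNA-binding protein *Igf2bp2* was 33.4 and 16.4 CPM. The other 4, *Igfals*, *Stc1*, *Stc2* and *Igf2bp3*, had between 0.959 and 6.92 CPM in Control and between 2 and 12 UMIs in AngII+HS. In fibroblasts 12 had at least 50 UMIs: *H19*, a non-coding RNA beside *Igf2*, was 1.65 CPM and 9.69 CPM, and *Stc2*, an inhibitor of PAPP-A, was 5.18 and 2.06 CPM, so 1 was past 2-fold higher and 1 lower (6.21% and 6.38% of all genes). In VECs *Igf2bp2* was lower (28.5 and 10.1 CPM, 1 of 7, against 4.18% of all genes), and in macrophages the insulin receptor *Insr* was lower (44.9 and 15.5 CPM, 1 of 5, against 14% of all genes).

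The genes most like each member were sought among 14289 genes, by the correlation of log2(CPM + 10) over 18 points, which are 9 cell types in 2 libraries that share depth and make-up. *Igfbp7* was most like *Ltbp3*, *Fkbp14* and *Khdrbs3* (r = 0.93 each), and *Igfbp5* most like *Pcsk6* (0.94), *Sned1* (0.93) and *Adamtsl1* (0.92). *Igfbp6* was most like *Dpt* (0.94), *Has1* (0.94) and *Fbln1* (0.94), and *Igf1* most like *Ang* (0.93), *Cd302* (0.91) and *Fkbp1b* (0.90). For *Igfbp4* these were *Gaa* (0.92), *Rnase4* (0.91) and *Serpinb6a* (0.90), for *Igfbp3* *Arhgap28*, *Adamts4* and *Nxpe4* (0.92 each), and for *Igfbp2* *Ankrd1* (0.89), *Gm29686* (0.88) and *4631405J19Rik* (0.87). The receptors had weaker partners, *Niban1* (0.81), *Sema4a* (0.81) and *Dock5* (0.79) for *Igf1r* and *Ldha* (0.69), *Gm20186* (0.67) and *Vti1b* (0.66) for *Igf2r*. Among the members, *Igf1* was closest to *Igfbp6* (0.79) and *Igfbp4* (0.78).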

How the data were processed

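The authors deposited filtered 10x count matrices, 1 per library, holding raw UMI counts per gene and cell. By the submitters' processing notes and the matrix header these came from Cell Ranger 8.0.1, with mm10 among the builds named, while the methods name GRCm39 with another version. Of the 33696 gene IDs, 33185 were in GENCODE vM39 (GRCm39). Cells were required to have 500 or more UMIs, 200 or more genes and a mitochondrial share below 20%, and the highest Scrublet scores (scanpy 1.11.5) were removed at 0.8% per 1000 cells (1019 Control and 4826 AngII+HS barcodes).

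Libraries were integrated with Seurat 5.3.0 (2000 variable genes without the members, 30 components, Louvain resolution 0.8), and VECs, fibroblasts and macrophages were clustered again (20 components, resolution 0.4). Clusters were named from fixed markers. A cluster stayed unnamed if, among its 10 leading genes, markers of some other type equalled or outnumbered its own, if fewer than 3 markers were found in 10% of its cells, or if it was shallow without a marker of its own leading. Raw counts were summed per type and library and scaled to CPM. Calls used 0.5 UMIs added, at least 50 UMIs in both libraries together and a 2-fold limit. Since each group is 1 library, no p-value was computed. Thinned shares are expected values for 1000 UMIs per cell, shallower cells left out. TMM factors came from edgeR 4.0.16.

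The ratio and its interval were run on Poisson counts simulated under the model that the interval assumes. These counts had no spread between cells, mice or libraries, so the run could check the computation only. Intervals cover counting error only. The members, lists and rules were chosen with earlier results of these data known. The alternatives were no or double doublet removal, stricter filters, no integration, other resolutions, members kept in the clustering, other scalings, equal weight per cell and free RNA subtraction; 3 alternatives that add or drop unnamed clusters were chosen after seeing the data. Named were the 10 members, pathway genes past 2-fold in VECs, fibroblasts, VSMCs or macrophages, the 3 most correlated genes for each member, and genes that lead a cluster, the last chosen after their values were seen.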

Additional observations from a re-analysis of the deposited data

Results flagged for a closer look

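Members that were past 2-fold higher in AngII+HS in one cell type and past 2-fold lower in another are given here as log2 ratios of AngII+HS over Control. These differences between cell types were not tested, since each group was 1 library.

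*Igfbp3* was at 2.28 in VECs and at -1.35 in LECs, so the 2 kinds of endothelial cell differed in direction, with 14 UMIs behind the AngII+HS value of LECs. *Igfbp4* was at 2.12 in VSMCs, 2.50 in neutrophils and 1.42 in B cells, and at -1.76 in macrophages. In the B cells and neutrophils of Control it rested on 8 and 5 UMIs. B cells were read as the measure of free RNA, with 62.9 CPM of *Igfbp4* in AngII+HS beside 77.8 CPM in AngII+HS macrophages. Within macrophages, *Igfbp4* was at -0.79 in the resident type and at 1.09 in the monocyte type, the latter from 9 Control UMIs. Neither type was past 2-fold lower, and their shares of the macrophages differed between the libraries. *Igfbp5* was at 1.57 in neural cells, and at -2.73 in fibroblasts, -2.60 in VSMCs, -1.49 in neutrophils and -1.43 in macrophages, while the unnamed *Pln* cluster stood at 0.19 [0.10 to 0.28]. In the macrophages of AngII+HS *Igfbp5* was 9.02 CPM, below the 11.8 CPM of B cells.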

How the results depend on the processing

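No paired analysis was possible because each group is 1 library. Of 29 log2 ratios past 2-fold that were followed through the alternatives, all 29 kept their direction and 19 stayed past 2-fold in every alternative that gave a value, in 318 of 335 comparisons. These 29 ratios were taken without the 0.5 UMIs that the calls added. *Igfbp5* in c13 was therefore among the 29 (1.015) but not among the calls (0.999 with 0.5 UMIs added). Free RNA subtraction gave no value where the level of a library fell to 0, and such ratios are counted without that comparison. Among the 19 these were *Igfbp2* in VECs, fibroblasts and macrophages, *Igf2r* and *Igfbp5* in macrophages, *Igfbp6* in VSMCs and *Igfbp7* in c11. The log2 ratio of *Igfbp7* in VECs (2.22) was 1.87 with no doublets removed, 2.35 with double the number removed, 2.55 with free RNA subtracted at the B cell level, 2.03 with equal weight per cell, 1.73 at the Control shares of the subtypes and 2.30 without the unnamed VEC subclusters. That of *Igf1* in fibroblasts (0.40) was 0.19 with no doublets removed, 0.60 with double the number removed, 0.48 with the members kept in the clustering and 0.63 after TMM scaling. That of *Igfbp7* in c12 (1.05) was 0.92 with equal weight per cell. The number of member and cell type pairs past 2-fold (30) ran from 27 with equal weight per cell to 42 with no doublets removed. Equal weighting left out pairs with 0 UMIs in a library. Among the 30 these were *Igfbp2* in B cells, T cells and neutrophils, with 0 Control UMIs each, so the 27 is not like for like. Of the other ratios past 2-fold, *Igfbp3* in c11, c12 and LECs, *Igf1* in LECs, VECs and VSMCs, *Igfbp5* in VSMCs and c13, and *Igfbp7* in VSMCs fell within 2-fold in at least 1 alternative, and the cause was not tested. The number of Control cells named VSMCs, 5106 in the main setting, was 1543 with double the doublets removed and 1641 without integration. Control still had 9250 and 10269 cells in these settings, so most of this fall was in the naming of clusters and not in removed cells. Depth limits *Igf2*, *Igfbp3* in LECs and the Control values of neutrophils and B cells.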

Other observations

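An unnamed cluster led by *Fgf14*, *Erbb4* and *Cacnb2*, with 342 Control and 222 AngII+HS cells, had *Igfbp2* at 6.96 CPM in Control and 348 CPM in AngII+HS. Its *Igfbp5* was 540 and 78.6 CPM, and its *Igfbp7* was 1903 and 1712 CPM. The first 2 differed between the libraries in the direction seen in named VSMCs, and *Igfbp7* did not.

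Within c13, the subcluster led by *Adarb2*, *Lbp* and *Adgrg6* held more *Igf1* than the other VEC subclusters, at 90.4 CPM from 25 UMIs in Control and 172 CPM from 47 UMIs in AngII+HS. It also held *Igfbp5*, at 50.6 and 213 CPM.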
